A study of Mus musculus with 8 samples.

Results

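The troponin genes described here are the 7 skeletal and cardiac isoforms whose symbols were looked up in the raw count matrix of all cells: Tnni1 and Tnni2, Tnnt1, Tnnt2 and Tnnt3, and Tnnc1 and Tnnc2. They are 7 of 42391 gene entries, they were looked up by name, and all 7 passed the filter on low counts in both cell types. RNA was sequenced from 8 cultures, with 2 replicates of every group. C2C12 is a mouse myoblast line, and its samples were taken 60 h after transfection, at 12 h of differentiation in low serum. Primary myoblasts, which grew out of minced hindlimb muscle of 5-week-old mice, were taken 48 h after transfection while proliferating. Every culture was transfected (C2C12 cells at 50 nM) with a non-targeting siRNA (control, labelled WT) or with 1 siRNA against Septin9 (Septin9-deficient, labelled Septin 9 KD), so that an effect of that single siRNA sequence cannot be told apart from an effect of Septin9 loss. Cell source, culture medium and time after transfection all differ between the cell types and likewise cannot be told apart.

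Troponin is the calcium switch of the thin filament in striated muscle. Troponin I inhibits the interaction of actin and myosin, troponin T anchors the complex to tropomyosin, and troponin C binds calcium and releases the inhibition. Each subunit is encoded by separate genes for slow, cardiac and fast muscle, and developing skeletal muscle is known to express slow and cardiac isoforms beside fast ones before fibre types are set. Tnni1 encodes slow and Tnni2 fast skeletal troponin I. Tnnt1, Tnnt2 and Tnnt3 encode slow skeletal, cardiac and fast skeletal troponin T. Tnnc1 encodes the troponin C of slow and cardiac muscle and Tnnc2 that of fast muscle.

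Several of these genes are neighbors. In the RefSeq annotation of GRCm38.p6, Tnni1 (chr1:135783033-135810989, plus strand) and Tnnt2 (chr1:135836315-135852268, plus strand) lie 25.3 kb apart. Tnni2 (chr7:142441816-142444410, plus strand) and Tnnt3 (chr7:142498771-142516213, plus strand) lie 54.4 kb apart. Tnnt1 (chr7:4504569-4515975, minus strand) lies 2.33 kb from Tnni3, the cardiac troponin I gene. Tnnc1 (chr14:31208312-31211729, plus strand) and Tnnc2 (chr2:164777161-164779734, minus strand) have no other troponin gene beside them. In GENCODE release M21, exons of Ube2c on the opposite strand cover 74% of the exonic bases of Tnnc2 (592 of 800), whereas the RefSeq spans of these genes do not overlap. The RefSeq span of the non-coding gene Prr33 overlaps the start of Tnnt3. The sources used here do not give whether reads were counted by strand, so the counts of Tnnc2 and Tnnt3 are uncertain to that extent.

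Since the 7 genes moved in the same direction in most comparisons below, the 250 bases upstream of an annotated transcription start are shown for 3 of them. These are Tnni1 and Tnnc1, the genes that rose in Septin9-deficient C2C12 cells, and Tnnt2, the gene with the smallest change there. Capitals mark E-boxes (CANNTG), the motif bound by the MyoD family of muscle transcription factors. The sequences are from RefSeq on GRCm38.p6, all on the plus strand, at chr1:135799171-135799420 for Tnni1 (an inner start within the gene's span), chr1:135836084-135836333 for Tnnt2 and chr14:31208062-31208311 for Tnnc1.
Tnni1: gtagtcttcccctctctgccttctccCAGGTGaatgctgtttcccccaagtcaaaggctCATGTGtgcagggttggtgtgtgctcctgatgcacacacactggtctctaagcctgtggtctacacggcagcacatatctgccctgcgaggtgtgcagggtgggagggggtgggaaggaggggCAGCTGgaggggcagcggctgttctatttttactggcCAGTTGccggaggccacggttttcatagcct
Tnnt2: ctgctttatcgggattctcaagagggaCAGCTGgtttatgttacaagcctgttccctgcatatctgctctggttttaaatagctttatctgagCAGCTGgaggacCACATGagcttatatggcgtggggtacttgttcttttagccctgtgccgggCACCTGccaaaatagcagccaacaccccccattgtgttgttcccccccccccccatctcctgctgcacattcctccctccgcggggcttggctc
Tnnc1: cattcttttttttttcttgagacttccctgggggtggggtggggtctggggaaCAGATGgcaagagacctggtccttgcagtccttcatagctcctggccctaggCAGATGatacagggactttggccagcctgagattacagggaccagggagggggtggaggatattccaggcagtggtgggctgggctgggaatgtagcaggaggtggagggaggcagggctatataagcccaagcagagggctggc
Upstream windows were available for 5 of the 7 genes (Tnni1, Tnnt1, Tnnt2, Tnnc1 and Tnnc2), with 7 windows in all. On both strands, the E-box letters CANNTG occurred 4 times in the printed windows of Tnni1 and of Tnnt2, 2 times in those of Tnnc1 and Tnnc2 and 1 time in that of Tnnt1. The second windows of Tnni1 and Tnnt2, not printed, held fewer, with 2 and 1. At least 1 E-box was found in 66.2% of the 32851 mouse windows of the same length. The MCAT letters CATTCC, which TEAD factors bind, were found in the printed Tnnt2 and Tnnc1 windows, not in the second Tnnt2 window, and in 12.6% of all windows. The letters TATAAA were found for Tnnt1 and in 12.4% of all windows. The MEF2 letters, CTA and TAG separated by any 4 bases, were in none of the 7 troponin windows and in 3.2% of all windows. The CArG letters, in the loose form of CC and GG separated by any 6 bases, were in every troponin window but the second of Tnnt2 and in 67.1% of all windows. These matches are letters in a window and are not evidence of binding.

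Between 20898611 and 27223414 reads were counted per sample. Septin9 itself was lowered by the siRNA in both cell types, from 422 ± 18.1 to 166 ± 26.9 CPM (read counts scaled to the TMM-normalized library size; mean ± SD, n = 2) in C2C12 cells and from 424 ± 68.7 to 183 ± 34.7 CPM in primary myoblasts. The myogenic markers (Myod1, Myf5, Des, Pax7, Myog, Chrna1, Itga7 and Cdh15) were all detected in each group, with summed levels of 1280 to 2333 CPM in C2C12 cells and 4393 to 8404 CPM in primary myoblasts. In each group 2 of 8 cardiac markers, a list that includes Tnni3, had no read, and the summed level of the list was 2.7 to 5.1 CPM throughout. The cultures numbered 1 and 2 stood apart in both cell types. In C2C12 cells Myog had 37.5 and 63.7 CPM in the cultures numbered 2 against 5.19 and 15.9 CPM in those numbered 1. In primary myoblasts fibroblast markers were higher in both cultures numbered 2. There Pdgfra had 31.7 and 32.0 CPM against 1.03 and 0.895 CPM in the cultures numbered 1, and Dcn had 13.3 and 16.1 CPM against 0.258 and 0.313 CPM. In these bulk samples fewer cells of a type and less RNA per cell cannot be told apart.

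The first question was which isoforms the control cells expressed. Troponin mRNA was scarce in control C2C12 cells and abundant in proliferating primary myoblasts. The 7 genes together took up 0.0108% and 0.0190% of all counted reads in the C2C12 controls and 0.439% and 0.165% in the primary controls. For every one of the 7 genes, both primary controls lay above both C2C12 controls, as 37.6% of all genes tested did. By the ratio of the group means, the smallest gap was that of Tnnt2, with 80.8 and 97.0 CPM in C2C12 controls against 907 and 374 CPM in primary controls. The largest was that of Tnni1, with 2.27 and 6.36 CPM against 1044 and 360 CPM.

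All 7 genes passed the test between the control cell types (edgeR quasi-likelihood test, Benjamini-Hochberg adjusted p of 0.00767 to 0.0390 and at least 1.5-fold), where 17.5% of 17103 genes were called higher in primary myoblasts. The log2 differences, primary myoblasts minus C2C12, were 7.34 (SE 0.87) for Tnni1 and 3.53 (SE 0.75) for Tnni2. For troponin T they were 3.29 (SE 0.84) for Tnnt1, 2.86 (SE 0.47) for Tnnt2 and 6.93 (SE 0.94) for Tnnt3. For troponin C they were 6.39 (SE 0.79) for Tnnc1 and 6.21 (SE 0.81) for Tnnc2. Slow Tnni1 and fast Tnnt3 thus had the highest differences, and the slow and the fast troponin C gene differed from each other by less than either standard error. With 1 C2C12 control left out, the spread came from the 2 primary controls alone, and the log2 differences were 2.55 to 8.26. With 1 primary control left out, the spread came from the 2 C2C12 controls alone. Over all alternative fits, these included, the lowest log2 difference was 2.06 (Tnnt2). In a fit with 1 sample in a group, the lone sample is assumed to vary like the other group, so no calls are given from these fits.

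**Figure D1:**
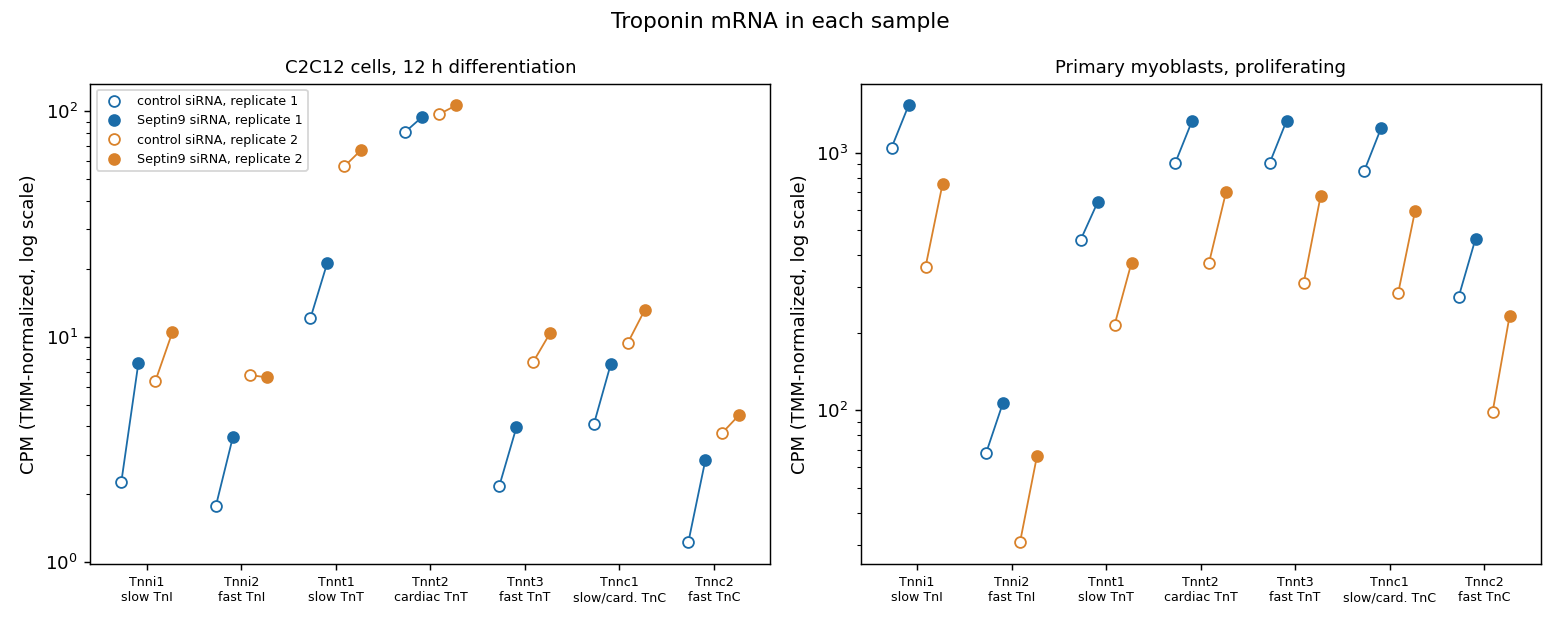
Level of the 7 troponin genes in each of the 8 samples, in TMM-normalized CPM on a log axis, with C2C12 cells on the left and primary myoblasts on the right (the axes have different ranges). Open circles are control and filled circles Septin9-deficient samples, and a line joins the samples of a replicate number. The line slopes upward in all but 1 case, Tnni2 in replicate 2 of C2C12 cells, where the level was 6.77 CPM in the control and 6.60 CPM in the Septin9-deficient sample.

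Levels of different genes were compared as CPM per kilobase of exon. On this scale the order in control C2C12 cells was Tnnt1 (15.7 ± 14.4), Tnnt2 (11.5 ± 1.48), Tnnc1 (6.49 ± 3.61), Tnnt3 (3.14 ± 2.49), Tnnc2 (3.11 ± 2.23), Tnni2 (2.85 ± 2.36) and Tnni1 (1.20 ± 0.803; mean ± SD, n = 2 each). Neighbors in this order overlapped between the replicates, apart from Tnnt2 and Tnnc1, whose ranges were 10.4 to 12.5 and 3.93 to 9.04 CPM per kilobase. In control primary myoblasts the order was Tnnc1 (542 ± 381), Tnnt3 (385 ± 267), Tnnc2 (233 ± 156), Tnni1 (195 ± 134), Tnnt1 (152 ± 78.0), Tnnt2 (82.7 ± 48.6) and Tnni2 (33.1 ± 17.6). Here the overlap was interrupted between Tnnt2 (48.3 to 117 CPM per kilobase) and Tnni2 (20.6 to 45.5). By mean on this scale, slow Tnni1 was the lowest of the 7 in control C2C12 cells and fast Tnni2 the lowest in control primary myoblasts. The rank of Tnni1 depended on the length. In CPM the lowest mean in control C2C12 cells was that of Tnnc2 (2.49), with Tnni2 at 4.27 and Tnni1 at 4.32. Tnni2 was the lowest in control primary myoblasts in CPM also.

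Isoform balance was expressed as the share of an isoform in the reads per exonic base of its subunit, so that the replicate difference in total troponin drops out. Slow Tnni1 made up 34.8% and 28.1% of troponin I in C2C12 controls 1 and 2. The 95% Wilson intervals of these shares were 26.0 to 44.7% and 24.1 to 32.5%, and they cover counting error only. In primary controls the Tnni1 share was 86.4% and 82.9%, far above both C2C12 values. Troponin T differed the most between the C2C12 replicates. Cardiac Tnnt2 made up 60.3% and slow Tnnt1 31.7% of troponin T in C2C12 control 1, whereas Tnnt2 made up 28.9% and Tnnt1 59.8% in C2C12 control 2. With the longest transcript as length, Tnnt2 made up 64.4% and 32.3% and Tnnt1 30.2% and 59.7%. From reads with no length, Tnnt2 was the main isoform in both C2C12 controls, at 85.0% and 60.0%, with Tnnt1 at 12.7% and 35.2%. The change of main isoform between these controls thus depended on dividing by length. Fast Tnnt3 was the minor isoform in these controls, at 7.99% and 11.3%. Per exonic base it was the main isoform in primary controls, at 63.9% and 57.4%, with Tnnt1 at 23.1% and 28.5% and Tnnt2 at 13.0% and 14.1%. From reads with no length, Tnnt3 took 39.96% and 34.53% and Tnnt2 39.92% and 41.62% of troponin T in these controls, so that this order depended on the length used. Troponin C showed no such contrast, as Tnnc1 accounted for 71.9% and 65.9% in C2C12 controls and 70.3% and 68.9% in primary controls. With 2 samples against 2, an exact permutation test cannot go below p = 0.333, so the shares were not tested.

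**Figure D2:**
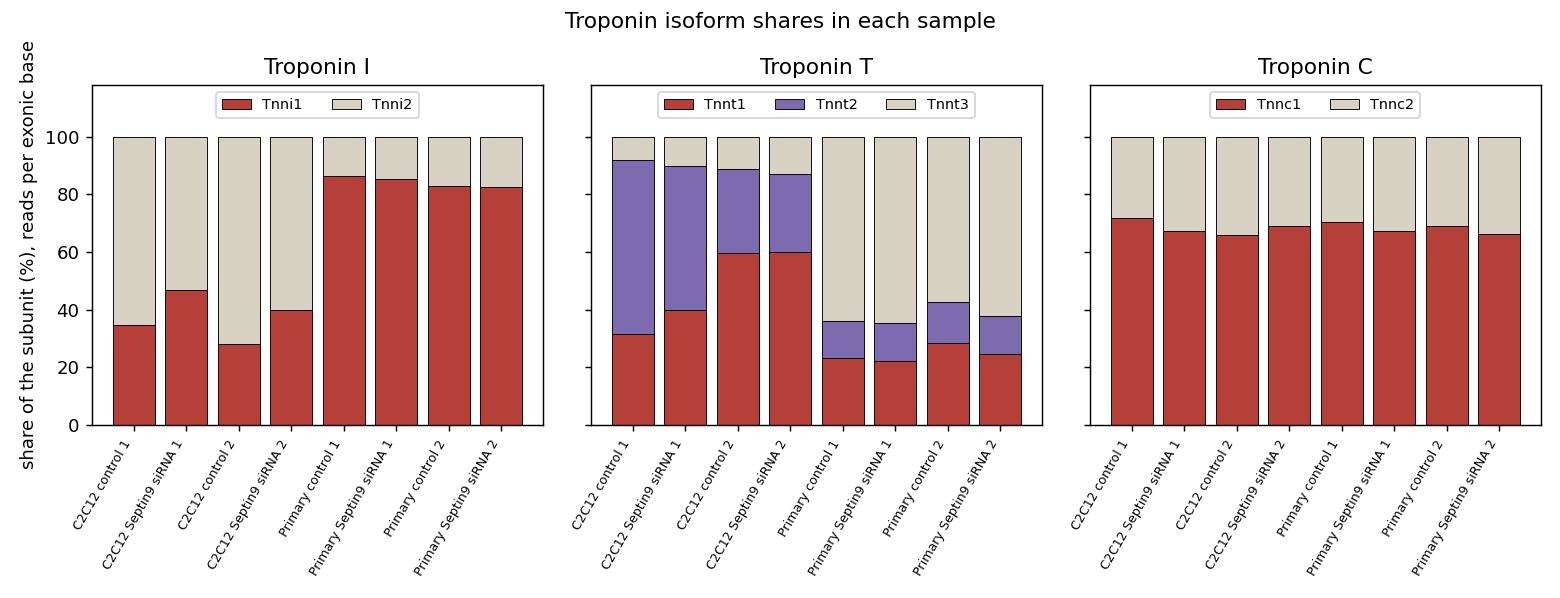
Share of each isoform within troponin I, T and C in each of the 8 samples, as percent of reads per exonic base of that subunit (stacked bars, 0 to 100%). Tnni1 lies between 28.1 and 47.0% in C2C12 samples and between 82.5 and 86.4% in primary myoblasts, Tnnt3 is the main troponin T in primary myoblasts per exonic base, and Tnnc1 lies between 65.9 and 71.9% in every sample.

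The second question was what changed in Septin9-deficient C2C12 cells. Slow Tnni1 and slow and cardiac Tnnc1 rose, and the other 5 genes had positive log2 fold changes that missed the thresholds (adjusted p under 0.05 and at least 1.5-fold). The 2 called genes compare with 0.828% of 15814 genes called higher. For the 7 genes the median log2 fold change was 0.58, against -8e-04 for all genes tested.

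Tnni1 had 2.27 and 6.36 CPM in controls 1 and 2 and 7.64 and 10.5 CPM in Septin9-deficient samples 1 and 2. It was the only one of the 7 for which both Septin9-deficient samples lay above both controls, which held for 13.3% of all genes tested. Its log2 fold change was 1.12 (SE 0.20, adjusted p = 0.00121, edgeR quasi-likelihood test, blocked by replicate number), and the log2 ratios within replicate pairs 1 and 2 were 1.71 and 0.71. Fast Tnni2 had 1.77 and 6.77 CPM in controls and 3.59 and 6.60 CPM in Septin9-deficient samples. The groups overlapped, pair 1 gave a log2 ratio of 0.98 and pair 2 of -0.04, and the log2 fold change of 0.34 (SE 0.22) did not pass the edgeR test (adjusted p = 0.450). Accordingly the share of Tnni1 in troponin I was 47.0% and 39.8% in Septin9-deficient samples, which is 12.2 and 11.7 percentage points above the control of the same number.

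Slow Tnnt1 had 12.1 and 57.0 CPM in controls and 21.3 and 67.6 CPM in Septin9-deficient samples. Its adjusted p was 0.00598 in the edgeR test, but the log2 fold change of 0.46 (SE 0.10) stayed under 1.5-fold, and 2.64% of all genes were higher at an adjusted p under 0.05 with no fold threshold. Cardiac Tnnt2 had 80.8 and 97.0 CPM in controls and 94.2 and 106 CPM in Septin9-deficient samples, a log2 fold change of 0.17 (SE 0.07, adjusted p = 0.166, edgeR). It was the most abundant troponin in CPM in these cells and the one that changed least. Fast Tnnt3 had 2.18 and 7.76 CPM in controls and 3.96 and 10.4 CPM in Septin9-deficient samples, with a log2 fold change of 0.58 (SE 0.17) and an adjusted p of 0.0532 in the edgeR test. The groups overlapped for all 3 troponin T genes, with control 2 above Septin9-deficient sample 1 in each case. The Tnnt2 share of troponin T was 10.4 percentage points lower in the Septin9-deficient sample of pair 1 and 2.04 points lower in that of pair 2.

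Tnnc1 had 4.09 and 9.41 CPM in controls and 7.60 and 13.2 CPM in Septin9-deficient samples. The groups overlapped, the pair ratios were 0.88 and 0.48 on the log2 scale, and the log2 fold change of 0.65 (SE 0.15) passed the edgeR test (adjusted p = 0.0110). Fast Tnnc2, the lowest in CPM, had 1.23 and 3.75 CPM in controls and 2.84 and 4.51 CPM in Septin9-deficient samples. Its log2 fold change of 0.61 (SE 0.24) was similar in size but did not pass (adjusted p = 0.165, edgeR). The share of Tnnc1 in troponin C was 67.3% in Septin9-deficient sample 1 and 69.2% in sample 2, below its control in pair 1 and above it in pair 2.

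The calls in C2C12 cells depended on the pairing and on the fit. Without the replicate block 0 of 7 genes were called, no troponin had an unadjusted p under 0.05 in the edgeR test, and the smallest adjusted p of a troponin was 0.999987. Among all 15814 genes 372 had an unadjusted p under 0.05 in that edgeR fit. None was called, the siRNA target Septin9 included, so this fit does not tell the troponins from the target. DESeq2 with the replicate block called Tnni1 and not Tnnc1 (adjusted p = 0.298). An edgeR fit of all 8 samples, which shares the spread between the cell types, called 0 of 7 genes (adjusted p = 0.0827 for Tnni1 and 0.158 for Tnnc1). It called 0.162% of 17918 genes higher, against 0.828% in the main fit. With 1 C2C12 pair left out of that kind of fit the spread came from the primary myoblasts alone, so no calls are given from it. Over all alternative fits the log2 fold change ran from 0.72 to 1.74 for Tnni1 and from 0.49 to 0.89 for Tnnc1. Markers of smooth muscle and myogenic markers moved with the siRNA in these cells. The summed level of 4 smooth muscle markers was 2445 and 2974 CPM in controls and 1670 and 1997 CPM in Septin9-deficient samples. Of these, Cnn1 fell by 0.84 (SE 0.12) on the log2 scale. The summed level of the 8 myogenic markers was 1280 and 1938 CPM in controls and 1823 and 2333 CPM in Septin9-deficient samples. All 8 had positive log2 fold changes, and 1 was called, Myog (1.03, SE 0.12), where 0.828% of all genes were called higher. The part of either list in the troponin result was not tested.

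**Figure D3:**
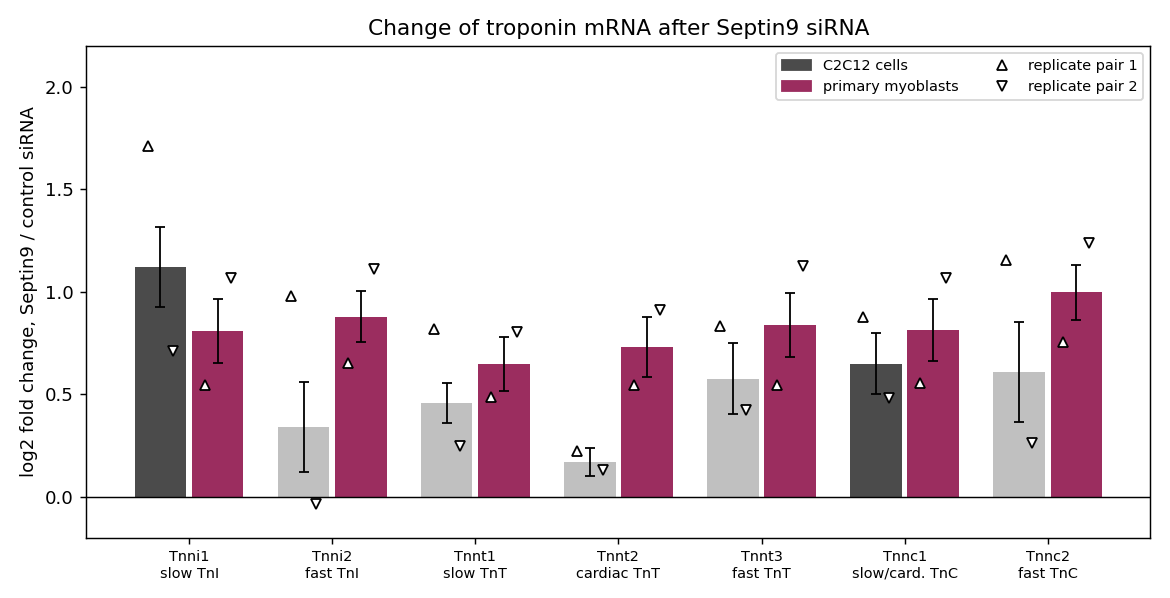
Log2 fold change of the 7 troponin genes in Septin9-deficient against control samples, by edgeR blocked by replicate number (bars, error bars are standard errors), and log2 ratios of replicate pairs 1 and 2 (upward and downward triangles). Gray bars are C2C12 cells, dark where the gene was called and pale where it was not, and red bars are primary myoblasts, where all 7 were called. Pair 1 exceeds pair 2 for each gene in C2C12 cells, and pair 2 exceeds pair 1 for each gene in primary myoblasts.

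In Septin9-deficient primary myoblasts all 7 troponin genes rose, whereas 2.87% of 17117 genes tested were called higher. The log2 fold changes lay between 0.65 and 0.998, with a median of 0.81 against 0.01 for all genes. For none of the 7 did both Septin9-deficient samples lie above both controls, which held for 12.5% of all genes tested. In each case control 1 lay above Septin9-deficient sample 2.

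Tnni1 had 1044 and 360 CPM in controls 1 and 2 and 1523 and 756 CPM in Septin9-deficient samples, and its log2 fold change was 0.81 (SE 0.16, adjusted p = 0.00462 in the edgeR test with the replicate block). Tnni2 had 68.2 and 30.8 CPM in controls and 107 and 66.7 CPM in Septin9-deficient samples, and its log2 fold change was 0.88 (SE 0.12, adjusted p = 0.000476, edgeR). Both Septin9-deficient samples lay above the control of their own number, yet the second fell short of control 1. The share of Tnni1 in troponin I moved by less than 1 percentage point in each pair, from 86.4 to 85.5% in pair 1 and from 82.9 to 82.5% in pair 2.

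Among the troponin T genes, Tnnt1 had 458 and 214 CPM in controls and 640 and 374 CPM in Septin9-deficient samples (log2 fold change 0.65, SE 0.13, adjusted p = 0.00722, edgeR). Tnnt2 had 907 and 374 CPM in controls and 1325 and 703 CPM in Septin9-deficient samples (0.73, SE 0.15, adjusted p = 0.00606, edgeR). Tnnt3 had 908 and 311 CPM in controls and 1327 and 677 CPM in Septin9-deficient samples (0.84, SE 0.16, adjusted p = 0.00367, edgeR). The share of Tnnt3 in troponin T was 0.635 percentage points higher in pair 1 and 4.74 points higher in pair 2. Tnnt2, the member with the smallest change in C2C12 cells, rose in primary myoblasts by an amount inside the range of the other members.

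Tnnc1 had 845 and 284 CPM in controls and 1243 and 594 CPM in Septin9-deficient samples (log2 fold change 0.81, SE 0.15, adjusted p = 0.00357, edgeR). Tnnc2 had 275 and 98.5 CPM in controls and 464 and 232 CPM in Septin9-deficient samples, and its log2 fold change of 0.998 (SE 0.14, adjusted p = 0.000347, edgeR) was the highest of the 7. The share of Tnnc1 in troponin C was lower by 2.97 percentage points in pair 1 and by 2.62 points in pair 2.

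The log2 ratios within pairs were 0.48 to 0.76 in pair 1 and 0.80 to 1.24 in pair 2, so that for every gene the ratio was higher in the pair with less troponin. The log2 ratio of Septin9 itself was -0.85 in pair 1 and -1.57 in pair 2, and its part in this difference was not tested. Without the replicate block none of the 7 genes was called or had an unadjusted p under 0.05 in the edgeR test, and the smallest adjusted p was 0.999975. Among all 17117 genes 378 had an unadjusted p under 0.05 in that edgeR fit, and none was called, Septin9 included. In a fit of both cell types with 1 primary pair left out, the spread came from the C2C12 cells alone, so no calls are given from it. Leaving out pair 2 put all members but Tnni2 and Tnnc2 between 0.48 and 0.55 on the log2 scale and thus under 1.5-fold. Over all alternative fits the log2 fold changes ran from 0.48 (Tnnt1) to 1.25 (Tnnc2). Tnnt1 was also close to the threshold under other scalings, with an adjusted p of 0.0511 for RLE size factors and 0.0579 for library size alone in edgeR. These scalings called 260 and 206 genes in all, of which 86.5% and 80.1% were higher, against 543 genes and 90.6% with TMM.

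By point estimate, the difference between replicates exceeded the siRNA effect in size for 6 of 7 members in C2C12 cells, all but Tnni1, and for all 7 in primary myoblasts. The margin was not tested. It was smaller than a standard error for Tnnt2 in C2C12 cells (0.19 against 0.17) and for Tnni2 in primary myoblasts, where both values round to 0.88. In C2C12 cells 6 of 7 genes were called higher in replicate 2 than in replicate 1, where 5.2% of all genes were. The log2 difference was 1.90 (SE 0.10) for Tnnt1, 1.56 (SE 0.18) for Tnnt3 and 1.32 (SE 0.22) for Tnni2, and 0.19 (SE 0.07) for Tnnt2, which stayed under 1.5-fold. In primary myoblasts all 7 were called lower in replicate 2, by 0.88 (SE 0.12) for Tnni2 to 1.30 (SE 0.15) for Tnnc1 on the log2 scale, and 7.81% of all genes were called lower. Of the 8 myogenic markers, 4 were called higher in replicate 2 of C2C12 cells (Myog, Chrna1, Pax7 and Cdh15). In primary myoblasts 5 of the 8 were called lower in replicate 2 (Myog, Chrna1, Cdh15, Myf5 and Itga7). Of the 5 fibroblast markers, 4 passed the filter in primary myoblasts and all 4 were called higher in replicate 2. The log2 difference was 5.06 (SE 0.19) for Pdgfra and 5.69 (SE 0.27) for Dcn. The summed level of the fibroblast markers was 346 and 317 CPM in the control and Septin9-deficient cultures numbered 1. It was 593 and 631 CPM in those numbered 2. The part of either marker list in the replicate difference of the troponins was not tested. Between the siRNAs 1 of the 4 tested fibroblast markers was called, Thy1, higher in Septin9-deficient primary myoblasts with a log2 fold change of 0.80 (SE 0.22).

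The siRNA effects in the 2 cell types were then compared directly, as an interaction in 1 model of the 8 samples with a block for each replicate pair. No troponin gene passed the edgeR test (smallest adjusted p = 0.378), and 0% of 17918 genes did, although 1469 genes had an unadjusted p under 0.05. Tnnt2, the 1 troponin gene among these 1469, had an effect 0.55 higher (SE 0.15) on the log2 scale in primary myoblasts. For the other genes the difference, primary myoblasts minus C2C12, ran from -0.30 (SE 0.29) for Tnni1 to 0.58 (SE 0.28) for Tnni2. DESeq2 with the same design also called no troponin gene. With pair 1 of the primary myoblasts left out, the log2 differences of Tnni2, Tnnt2, Tnnt3 and Tnnc2 were 0.60 to 0.85. The effect in primary myoblasts then comes from 1 pair and the spread from the C2C12 cells alone. No calls are therefore given from fits with a pair left out. For all members but Tnnt2 the sign of the difference depended on the pair left out.

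Other genes of the contractile apparatus were counted in lists that were chosen with earlier results known, and their counts are to be read against the 0.828% of all genes called higher in C2C12 cells and the 2.87% in primary myoblasts. Of 15 partners of the thin filament, 14 were tested in C2C12 cells and 3 rose, namely cardiac actin Actc1 (log2 fold change 0.72, SE 0.16) and the Kelch proteins Klhl41 (1.16, SE 0.20) and Klhl40 (0.62, SE 0.15), which stabilize thin filament proteins. In primary myoblasts 6 of 14 rose (Actc1, Klhl40, Klhl41, the beta-tropomyosin gene Tpm2 and the leiomodins Lmod2 and Lmod3) and 1 fell (Nebl, by 0.90 on the log2 scale). The skeletal actin gene Acta1 had values of -0.40 (SE 0.13) in C2C12 cells and -0.06 (SE 0.18) in primary myoblasts and passed in neither. The remaining troponin gene, cardiac Tnni3, had 1.5 and 3.0 CPM in C2C12 controls and did not pass in either cell type, at -0.07 (SE 0.26) and -0.91 (SE 0.45). The median log2 fold change of the partners was 0.20 in C2C12 cells and 0.45 in primary myoblasts.

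Of 12 slow fibre genes, 6 were tested in C2C12 cells, where the slow myosin heavy chain Myh7 rose (1.57, SE 0.34). Myh7 had few reads there, with 9 and 25 in controls and 20 and 74 in Septin9-deficient samples. In primary myoblasts 11 slow fibre genes were tested and 6 rose (Casq2, Myoz2, Csrp3, Myl6b, Mb and Ankrd2). Of 12 fast fibre genes, 3 of 7 tested rose in C2C12 cells (Atp2a1, Mylpf and Actn3) and 5 of 12 in primary myoblasts (Myl1, Atp2a1, Mylpf, Myh4 and Actn3). Medians were 0.43 and 0.61 for the slow and 0.73 and 0.78 for the fast genes in C2C12 cells and primary myoblasts. Both slow and fast genes were thus among those called in each cell type, where 0.828% (C2C12 cells) and 2.87% (primary myoblasts) of all genes were called higher. Among developmental myosins, the embryonic heavy chain Myh3 rose in both (0.74 and 1.08), and Myh8 and Myl4 rose in primary myoblasts (1.39 and 1.02). Of the muscle transcription factors, Myog (myogenin) rose in C2C12 cells (1 of 17 tested), and Myog, Sox6 and Mef2c rose while Myf5 fell in primary myoblasts (3 and 1 of 20). Without the replicate block none of the genes on these lists was called in either cell type, and neither was Septin9.

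**Figure D4:**
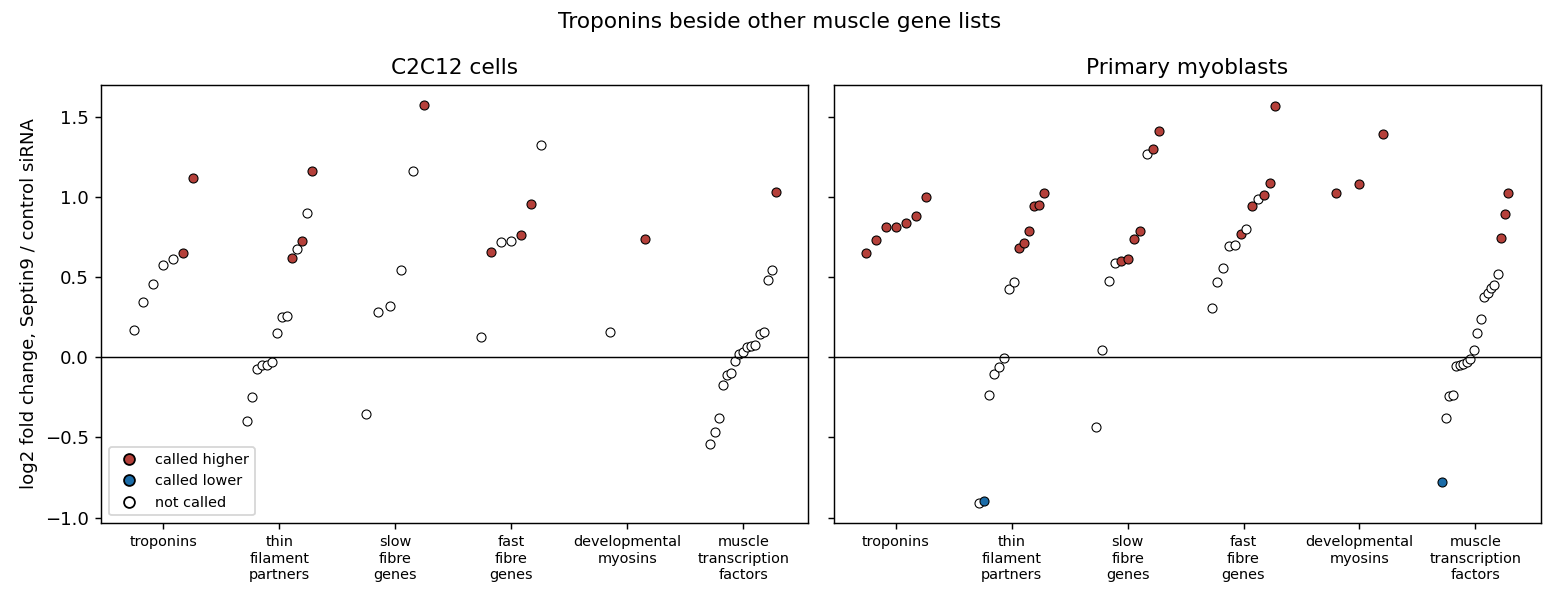
Log2 fold change of the troponins and of 5 other muscle gene lists in Septin9-deficient against control cells, by edgeR with the replicate block, for C2C12 cells (left) and primary myoblasts (right). Each point is a gene, red where called higher, blue where called lower and white where not called. All 7 troponins lie above 0 in both panels, between 0.17 and 1.12 in C2C12 cells and between 0.65 and 0.998 in primary myoblasts.

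The genes whose log2 CPM over the 8 samples was most like the mean of the 7 troponins, among 10674 genes with a mean of at least 10 CPM, were Mylpf (Pearson r = 0.9995), Mybph (0.9991), a further copy of Unc45b (0.9990), Adora1 (0.9988) and Trim55 (0.9986). Mylpf encodes the fast regulatory myosin light chain, and Mybph and Trim55 encode sarcomeric proteins. The 8 points fall into 2 clusters, C2C12 cells and primary myoblasts, so the coefficients are given as a description only. Between the troponin genes themselves the coefficient ran from 0.9484 (Tnnt1 and Tnnt2) to 0.9993 (Tnnc1 and Tnnc2).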

How the data were processed

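Per the labels, the authors aligned the reads with STAR 2.7.2 (GRCm38.p6) and obtained gene counts with featureCounts 2.0.1. The deposited counts are raw. A second deposited table per cell type holds a signal, namely counts adjusted by the authors for the experiment with ComBat-Seq and divided by size factors (DESeq2 1.40.1). All of its values (100%, within 0.02) were whole multiples of 1 count, so whole counts were recovered. The paper names Gencode, whereas the gene names are those of RefSeq, and the use of strand in counting is not given in the sources used here. On 16 broken lines genes such as Neb were split, and these were left out.

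Samples were grouped by their titles. The analysis used edgeR 4.0.16 in R 4.3.3, with filterByExpr, TMM scaling and the quasi-likelihood test over all genes with Benjamini-Hochberg adjustment. For the siRNA effect each cell type was fitted alone with the replicate number as a block, since the paper's methods treat the independent experiments as batches. Samples of the same number deviated together (correlation across genes, which are not independent, of 0.767 over 14385 genes in C2C12 cells and 0.854 over 15180 in primary myoblasts). Pairing rests on the replicate numbers in the labels, and with 2 replicates the p-values measure only the spread between these samples. Genes were called at an adjusted p under 0.05 and at least 1.5-fold. A standard error is the fold change (log2) over the root of its F statistic. CPM use TMM factors of all 8 samples, and pair ratios use log2 CPM with a prior count of 2. Between 20898611 and 27223414 counts per sample set the depth. Counts were divided by the union of exonic bases in GENCODE M21 for shares, with 95% Wilson intervals that hold the other isoforms in their ratio, and sequences and gene spans came from RefSeq on GRCm38.p6 (5 of 7 genes had a window).

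The 7 genes are always named. Called genes of each list, and the 5 genes most correlated with the troponin mean, are named by rule, and Septin9, Acta1, Tnni3 and the markers beside them are named in addition. The members and lists were chosen with earlier results of these data known. The fits were also run on simulated counts whose spread between replicates was capped. That simulation does not show how they perform where the spread in the data was larger. Alternatives were RLE or library size scaling, the low-count filter dropped or set to 10 counts per sample, DESeq2 1.42.0, DESeq2 on the batch-corrected counts, an adjusted p of 0.01, no fold threshold, no replicate block (or a block for the controls), all 8 samples in one fit, other lengths for shares, and each replicate left out. Counting Tnni3 as a further troponin I isoform, and shares without each control, were added after seeing the data.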

Additional observations from a re-analysis of the deposited data

How the results depend on the processing

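Of the 84 log2 fold changes of the troponins recomputed in C2C12 cells, 71 kept their direction and their side of the threshold, and of the 84 in primary myoblasts 70 did. In C2C12 cells, where 2 genes were called, 1 was called at an adjusted p of 0.01 and with DESeq2 (Tnni1), and 0 with all 8 samples in one fit and with no replicate block. Over all alternatives, with each pair left out included, the log2 fold change there ran from 0.72 to 1.74 for Tnni1. In primary myoblasts, where 7 were called, 0 were called with no replicate block. With pair 2 left out, all members but Tnni2 and Tnnc2 were under 1.5-fold there. The replicate block left 6 of 7 genes called between the controls, where an adjusted p of 0.01 gave 4. Over all alternatives, with each control left out included, these log2 differences ran from 2.06 (Tnnt2) to 8.26 (Tnni1). For the difference in siRNA effect, where 0 were called, 1 was called with no filter (Tnnt2). That difference took either sign, depending on which pair was left out, for Tnni1 (-0.94 to 0.085), Tnni2 (-0.14 to 0.91), Tnnt1 (-0.18 to 0.40), Tnnt3 (-0.021 to 0.60), Tnnc1 (-0.079 to 0.45) and Tnnc2 (-0.21 to 0.73). In all, 8 of 77 recomputed differences had a sign other than in the main fit. The log2 fold change of Tnni2 in C2C12 cells also took either sign (-0.036 to 1.01). Mean control shares moved with the length used. The Tnni1 share was 52.3% in C2C12 cells and 93.0% in primary myoblasts from reads with no length, and 23.8% in C2C12 cells with Tnni3 counted. The Tnnt1 share was 24.0% in C2C12 cells and 22.0% in primary myoblasts with no length, and 30.8% in primary myoblasts with the longest transcript. The Tnnt2 share was 72.5% and 40.8% with no length and 18.1% in primary myoblasts with the longest transcript, and the Tnnt3 share 3.55% and 37.2% with no length and 6.67% and 51.1% with the longest transcript, for C2C12 cells and primary myoblasts. The Tnnc1 share was 73.6% and 74.3% with the longest transcript and 74.2% and 74.9% with no length. The cause was not tested. Few reads limit the C2C12 controls, where Tnni1, Tnni2, Tnnt3, Tnnc1 and Tnnc2 had 27 to 256 counts each.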
